A study of Mus musculus with 4 samples.

Results

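Complement and coagulation are the protease cascades of blood plasma, and most of their proteins are made by the liver. The gene set described here holds 46 members, 24 of complement and 22 of coagulation, chosen by name and found among the 56748 genes of the deposited expression table. The tissue was bulk liver of NSG mice, an immunodeficient strain without mature lymphocytes, labelled wild type in genotype. One group of 2 mice was untreated and given no vehicle. The other 2 mice received JIB-04, an inhibitor of Jumonji histone demethylases, by mouth, 5 doses of 55 mg/kg given 2 per week. Each library came from 1 animal, so the spread within a group is between animals, and age is not in the labels used here. The comparison is JIB-04 against untreated liver, with complement and coagulation taken apart.

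Complement is set off by 3 routes. C1q with the proteases C1r and C1s starts the classical route, mannose-binding lectins with MASP proteases start the lectin route, and factors B and D with properdin drive the alternative route. All of them cleave C3, after which C5 to C9 assemble the membrane attack complex, and factor I, C4-binding protein and C1 inhibitor hold the cascade in check. Coagulation turns prothrombin into thrombin through vitamin K dependent proteases and the contact system, thrombin turns fibrinogen into fibrin, and plasmin dissolves it. Hepatocytes make nearly all of these proteins. C1q and properdin come mainly from macrophages and other myeloid cells, and factor D from fat.

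Expression is given as FPKM, a read count scaled by gene length and library size. Reads recovered from these values numbered 36469514 to 43283827 per library. Of all reads the members took 5.75% (untreated 1), 4.68% (untreated 2), 5.49% (JIB-04 1) and 5.02% (JIB-04 2); values listed for 4 libraries keep this order. Differences are on the log2(FPKM + 1) scale, which understates changes of low genes, and were tested with limma over the 10819 genes whose mean FPKM reached 1. Of these 2.14% were called at an adjusted p under 0.05 (165 higher and 67 lower, or 156 and 105 after rescaling without the 50 most abundant and mitochondrial genes, 128 and 75 with quantile normalization, and 271 and 175 with voom on recovered reads). A fold is the ratio of group means of FPKM. An exact permutation of 2 libraries against 2 cannot go below a two-sided p of 0.333, so the tests of single genes lean on limma's pooled spread.

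Among the 45 members tested 1 was called. C2, the serine protease that joins C4b to form the classical and lectin C3 convertase, rose 2.15-fold. Of the 23 tested complement members 1 rose and 0 fell (beside 1.53% of all tested genes called higher and 0.619% called lower), and 22 did not pass. Of the 22 tested coagulation members 0 were called by limma, 2 had an unadjusted p under 0.05, and voom on recovered reads called 1, F11, lower. Over both lists 6 of 45 had an unadjusted p under 0.05, where 15.5% of all tested genes did; 5 of the 6 were lower (6.47% of all tested genes). Small negative differences were common: the median log2 difference was -0.17 in complement (-0.16 with the untested member) and -0.08 in coagulation, against 0.0068 over all tested genes. Differences were below 0 in 18 of 23 complement and 14 of 22 coagulation members, and in 48.6% of all tested genes. With quantile normalization these counts were 21 and 18, without untreated 1 they were 14 and 11, and without JIB-04 2 they were 18 and 11, so an even split of coagulation members came from leaving out either library. The complement median was below 0 in all 13 alternatives, but shrank to -0.079 without untreated 1 and to -0.095 without JIB-04 1. That of coagulation turned to 0.025 without untreated 1 and was -0.21 with quantile normalization. Both JIB-04 libraries lay below both untreated libraries in 8 tested complement and 9 coagulation members, and above them in 2 and 1. Over all tested genes groups were apart in 46.4%, downward in 21.8% and upward in 24.6%. Standard errors of the members ran from 0.12 to 0.21, and a difference that missed the threshold is not shown to be absent.

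**Figure D1:**
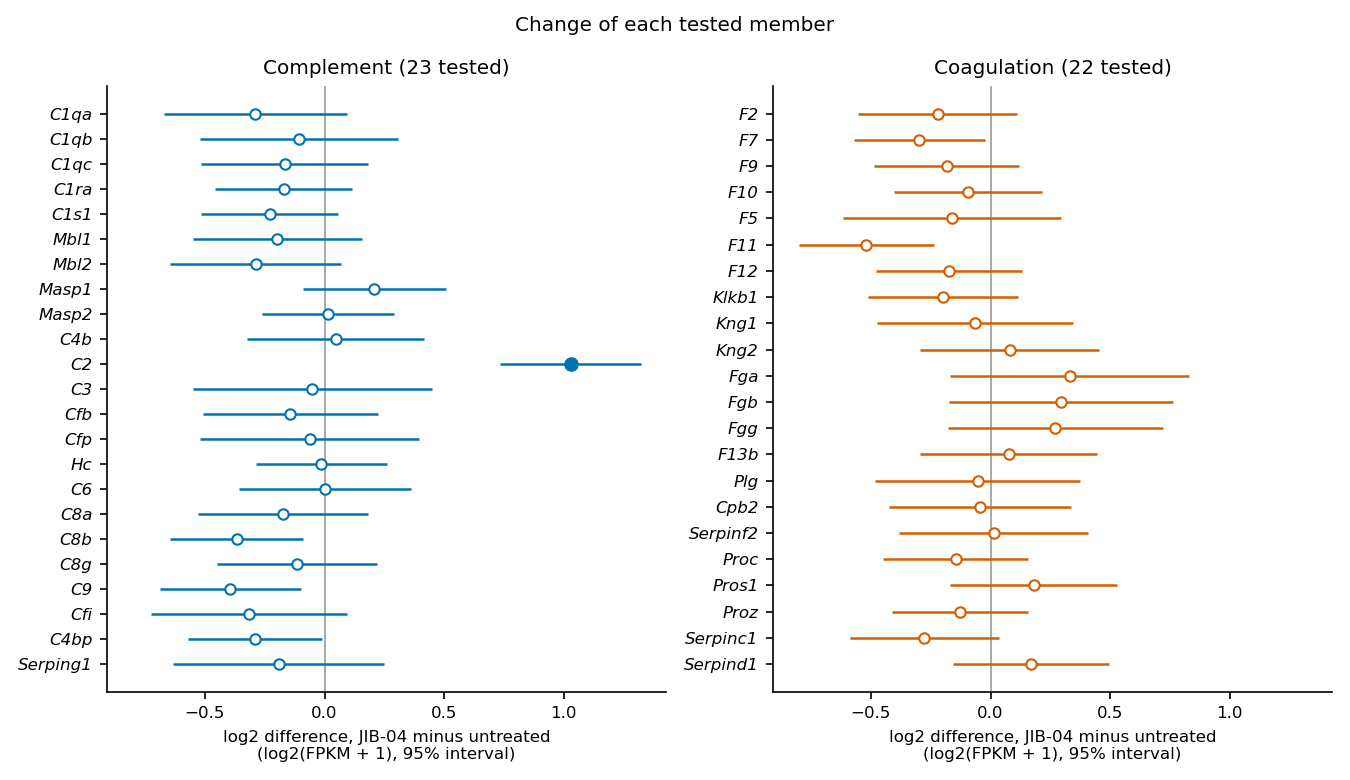
Log2 difference (JIB-04 minus untreated, log2(FPKM + 1)) of the 23 tested complement and 22 tested coagulation members, with 95% limma intervals; the filled point passed the test. Only C2, at 1.03, did, and most others lie within 0.4 of 0, with F11 at -0.52 the lowest.

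**Figure D2:**
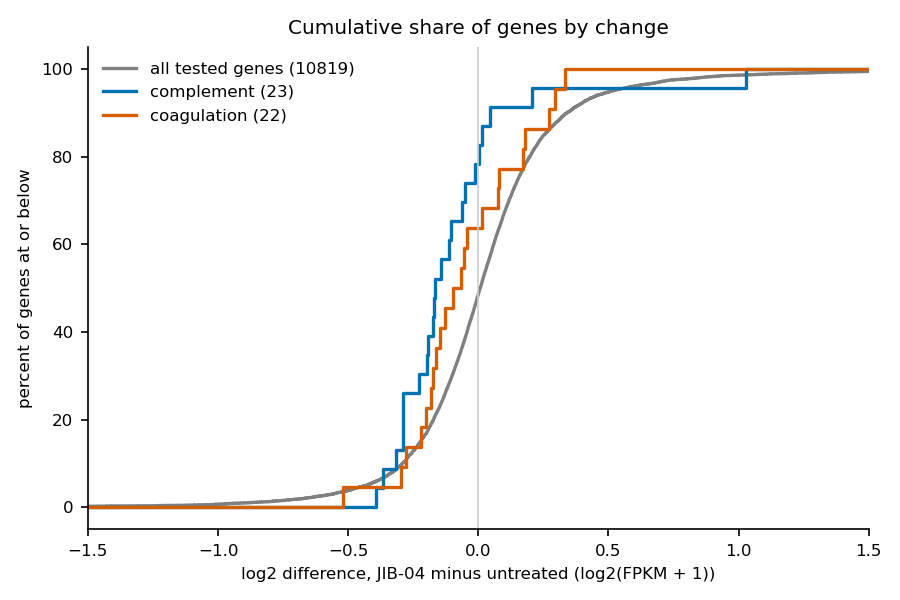
Cumulative percent of genes at or below a log2 difference (x axis, JIB-04 minus untreated) for all 10819 tested genes and for the tested members of each list. Around the medians, -0.17 and 0.0068, the complement curve lies left of that of all genes. It starts only at -0.39, right of the lowest genes tested, and its last step, at 1.03, is C2.

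C2 (ENSMUSG00000024371, GRCm39 chromosome 17, 35081580 to 35117241, minus strand) was at 9.58 and 8.73 FPKM in the untreated animals and at 18.7 and 20.8 in the treated ones. Both treated animals lay well above both untreated ones. The means were 9.16 ± 0.604 and 19.7 ± 1.48 (SD, n = 2), a log2 difference of 1.03 (SE 0.12, 95% interval 0.74 to 1.32, limma adjusted p = 0.0137), from 1361 and 1277 reads against 3100 and 2953. The call held with voom (adjusted p = 0.00264) and was lost without the filter on low values (0.149). Leaving out untreated 2 (0.0536), JIB-04 1 (0.0955) or JIB-04 2 (0.123) also ended it, with a log2 difference of 0.96 to 1.10 over the alternatives.

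The C2 gene is joined to its neighbour in the annotation. Cfb, which encodes factor B, the alternative route's counterpart of C2, lies just downstream on the same strand (35075350 to 35081494). An annotated gene, Gm20547, spans both and was listed at 0 in all 4 libraries. In GENCODE M21, whose exon lengths equal the deposited lengths of all 46 members, 79.5% of the exon bases of Cfb and 42.8% of those of C2 are also exons of Gm20547, which leaves 579 and 2216 bases of their own. Cfb stood at 1.33 and 1.13 FPKM without and 1.197 and 0.858 with JIB-04, from 89 to 145 reads (log2 difference -0.14, adjusted p = 0.738). How reads on shared exons were counted is not stated, so the levels of C2 and Cfb are uncertain. Zbtb12, on the opposite strand within C2, was at 2.08 and 1.15 without and 1.78 and 1.51 with JIB-04, and 4.16% of C2 exon bases overlap exons of that strand.

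None of the genes that start the classical route passed. The 3 chains of C1q are encoded side by side on chromosome 4. C1qa was at 89.0 and 81.0 FPKM without and 60.5 and 79.4 with JIB-04 (log2 difference -0.29, adjusted p = 0.472). JIB-04 2 reached nearly the lower untreated value, and JIB-04 1 stood apart. C1qb (66.2 and 56.8, then 49.0 and 66.0) and C1qc (33.1 and 27.7, then 24.7 and 29.2) were likewise lowest in JIB-04 1, with overlapping groups. C1qa had 1.203 to 1.43 times the FPKM of C1qb in the 4 libraries. Summed FPKM of 10 macrophage markers was 409.9 and 342 without and 293 and 355 with JIB-04, also lowest in JIB-04 1. None of those markers is at 0, and 0 of 10 were called by limma (1 with an unadjusted p under 0.05; voom called Lyz2 lower). Their part in the C1q values was not tested, and in bulk tissue fewer cells and less RNA per cell cannot be told apart.

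The C1 proteases are hepatocyte genes. C1ra was at 82.3 and 76.8 without and 72.2 and 68.9 with JIB-04, and C1s1 at 112 and 109 against 97.2 and 91.6. In both the treated values lay below the untreated ones, and neither passed (adjusted p = 0.580 and 0.440). Their ratio, C1s1 over C1ra, kept within 1.33 to 1.42. Close copies make these levels uncertain, since 50.8% of the 50-base stretches of C1ra transcripts also occur in other genes, mainly C1rb, and 21.8% of those of C1s1, mainly in C1s2.

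In the lectin route the 2 mannose-binding lectins differ in level. Mbl2, the second most abundant complement gene per length, was at 502 and 604 FPKM without and 444 and 457 with JIB-04, with no overlap (log2 difference -0.29, adjusted p = 0.436). Mbl1 was at 128 and 116, then 95.8 and 118, and the groups overlapped. Mbl2 had 3.88 to 5.21 times the FPKM of Mbl1. The protease Masp1, which activates the route, was one of the few members above untreated in both animals, at 25.01 and 25.3 against 31.4 and 27.2 (log2 difference 0.21, adjusted p = 0.514). Masp2, which cleaves C4 and C2, was at 41.9, 41.5, 41.3 and 43.0 in the same order (interval of the log2 difference -0.26 to 0.29). Exons of Masp2 overlap those of the opposite-strand gene Tardbp over 54.9% of their bases, so its level is uncertain if strand was not used.

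C3, on which all routes converge, had the highest level in the list. It was at 2271 and 1686 FPKM without and 2146 and 1664 with JIB-04 (log2 difference -0.05, interval -0.55 to 0.45). In each group animal 1 was well above animal 2, by more than the group means differed. C4b, which encodes C4, was at 465 and 380.2 against 456 and 413, with overlap (adjusted p = 0.936). It shares 34.6% of its 50-base stretches with other transcripts, mainly C4a.

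In the alternative route, Cfp, the gene of properdin, was at 30.5 and 27.8 without and 23.0 and 33.7 with JIB-04, so the treated animals enclosed the untreated ones (adjusted p = 0.930). Cfd, the gene of factor D, was below the filter. It held 7 and 1 reads in untreated and 0 and 0 in JIB-04 libraries. The fat cell markers Lep and Retn were at 0 throughout, and Adipoq held 5 reads in untreated 1 and 0 in the others. Plin1 held 2 reads in untreated 1, 1 in JIB-04 2 and 0 in the others. Fabp4 and Lipe overlapped between groups, and Cidec and Pparg were higher in both JIB-04 animals. The part of these markers in the Cfd reads was not tested.

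Of the 6 members that belong to the membrane attack complex, C9 and C8b had the lowest log2 differences in the complement list. C9, which forms the pore, was at 180.1 and 173 FPKM without and 139 and 129.9 with JIB-04. Its means were 177 ± 4.75 and 134 ± 6.34 (SD, n = 2; log2 difference -0.39, SE 0.12, limma adjusted p = 0.188). C8b, the beta chain of C8, was at 63.5 and 65.6 against 48.7 and 51.0 (log2 difference -0.37, adjusted p = 0.190). Neither pair of groups overlapped, and neither gene was called in any of 13 alternatives. The other chains of C8 overlapped: C8a was at 190.4 and 177 against 181 and 146, and C8g at 232 and 231 against 196 and 233. C8g over C8b was 3.66 and 3.51 without and 4.03 and 4.56 with JIB-04. C6 ranged from 6.08 to 7.57.

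Hc encodes C5, and NSG mice carry the NOD strain's defective Hc allele and lack active C5 protein. Its transcript was counted at 58.8 and 58.2 FPKM without and 58.9 and 57.0 with JIB-04. The 4 libraries were nearly equal (log2 difference -0.01, interval -0.29 to 0.26).

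All 3 inhibitor genes had negative differences and none passed. C4bp, which encodes C4-binding protein, was at 97.3 and 93.6 without and 77.0 and 78.8 with JIB-04, with no overlap (log2 difference -0.29, unadjusted p = 0.0438, adjusted p = 0.302). Cfi, the gene of factor I, was at 523 and 395 against 381 and 349.9, and Serping1, the gene of C1 inhibitor, at 543 and 389 against 392 and 413. In Serping1 untreated 1 stood above the other 3 libraries, which were close together, and in Cfi it stood furthest above them.

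**Figure D3:**
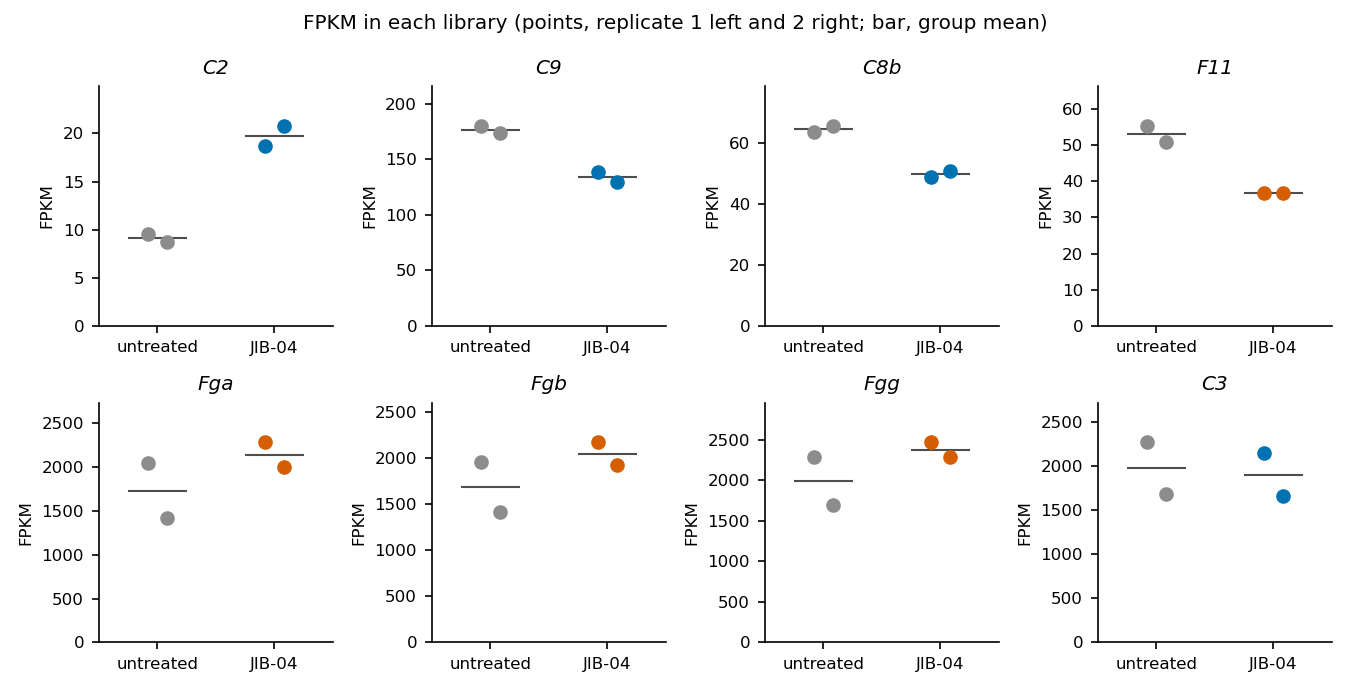
FPKM (y axis, from 0) of 8 members in each of the 4 libraries; points are animals and bars group means. C2 is higher and C9, C8b and F11 are lower in both JIB-04 animals, whereas untreated 2 is the lowest point for the 3 fibrinogen chains and C3 overlaps.

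Among the vitamin K dependent proteases, F7, the factor VII gene that starts the tissue factor route, was at 78.2 and 76.6 FPKM without and 62.8 and 62.8 with JIB-04. The groups were tight and apart (log2 difference -0.30, unadjusted p = 0.0374, adjusted p = 0.283). F2, the prothrombin gene, was at 487 and 425 against 395 and 385, and F9 at 88.6 and 80.4 against 78.0 and 70.6. Both were lower in both treated animals by small steps (adjusted p = 0.537 and 0.576). F10, which lies beside F7 and Proz on chromosome 8, overlapped at 225 and 202 against 196 and 203. F5, the cofactor of factor X, also overlapped, at 104 and 85.3 against 99.0 and 71.7.

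F11 had the lowest log2 difference of all members and did not pass. The gene, on chromosome 8 (ENSMUSG00000031645, 45694211 to 45715068), encodes factor XI, which amplifies thrombin formation. It was at 55.3 and 50.8 FPKM without and 36.7 and 36.6 with JIB-04. The groups were apart, and the treated animals nearly equal. The means were 53.1 ± 3.15 and 36.7 ± 0.0690 (SD, n = 2), a log2 difference of -0.52 (SE 0.12, interval -0.80 to -0.24, limma adjusted p = 0.0887). It passed with voom (0.0452) and in no other alternative (up to 0.351).

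No other gene of the contact system passed. F12, the gene of factor XII, was at 281 and 260.2 without and 235 and 244 with JIB-04, and Klkb1, of plasma prekallikrein, at 43.4 and 43.6 against 34.7 and 41.1. Neither overlapped and neither passed (adjusted p = 0.604 and 0.553). Another annotated gene, Gm45753, listed at 0 throughout, holds 43.2% of the Klkb1 exon bases. The kininogens, which carry bradykinin, are a pair of close copies on chromosome 16. Kng1 was at 1068 and 819 against 875 and 913, and Kng2 at 159.7 and 129 against 164 and 141. Both overlapped, and Kng1 had 5.34 to 6.69 times the FPKM of Kng2, with 17.2% and 19.4% of their 50-base stretches found in other transcripts.

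The fibrinogen chains were the most abundant coagulation transcripts, and the 3 genes lie together on chromosome 3. Their promoters are shown because the 3 transcripts kept similar proportions in every animal, as the ratios given after them show. Each line is the 250 bases before the RefSeq start site, 5′ to 3′ on the strand of the gene, at chr3:83025903-83026152 (plus), chr3:83049864-83050113 (minus) and chr3:83007474-83007723 (plus) of GRCm38, an older build than that of the gene coordinates. Capitals mark matches on either strand to CTGGGAA, the core of the interleukin 6 response element, to GTTAAT, a half-site of HNF1, and to TTGCNNAA, a C/EBP site.
Fga: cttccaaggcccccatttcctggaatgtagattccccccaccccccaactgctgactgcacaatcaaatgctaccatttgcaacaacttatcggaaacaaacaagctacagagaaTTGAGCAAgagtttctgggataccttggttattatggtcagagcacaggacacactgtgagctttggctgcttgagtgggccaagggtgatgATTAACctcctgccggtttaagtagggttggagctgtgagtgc
Fgb: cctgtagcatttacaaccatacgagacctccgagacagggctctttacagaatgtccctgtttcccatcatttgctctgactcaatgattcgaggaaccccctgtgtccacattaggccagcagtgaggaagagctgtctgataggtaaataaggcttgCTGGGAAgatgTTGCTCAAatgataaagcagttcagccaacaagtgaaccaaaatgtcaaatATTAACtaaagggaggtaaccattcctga
Fgg: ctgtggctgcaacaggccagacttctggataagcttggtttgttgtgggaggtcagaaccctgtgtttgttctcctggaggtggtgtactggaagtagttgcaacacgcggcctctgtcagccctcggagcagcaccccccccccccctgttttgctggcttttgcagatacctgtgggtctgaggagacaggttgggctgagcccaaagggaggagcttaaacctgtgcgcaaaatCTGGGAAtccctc
Fgb holds all 3 motifs, with no overlap between them, the C/EBP and interleukin 6 matches starting at -80 and -91 and the HNF1 match at -29. Fga holds the HNF1 half-site at -43 and the C/EBP site at -135, and Fgg the interleukin 6 core at -13. The promoters searched left out 10 of the 46 members, Proc among them. The other 36 had a promoter in the set searched, with 38 start sites. CTGGGAA was in 13.2% of these and in 9.1% of all 32851 promoters cut to the same length, GTTAAT in 26.3% and 6.43%, and TTGCNNAA in 23.7% and 9.56%. These are matches of letters and show no binding.

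Fga was at 2044 and 1414 FPKM without and 2281 and 2006 with JIB-04. Fgb was at 1953 and 1415 against 2165 and 1918, and Fgg at 2286 and 1694 against 2469 and 2284. In all 3, untreated 2 was the lowest library, untreated 1 stood close to JIB-04 2, and the groups overlapped. Log2 differences were 0.33, 0.29 and 0.27 (SE 0.21, 0.20 and 0.19; limma adjusted p = 0.537, 0.562 and 0.578). Without untreated 1 they were 0.60, 0.53 and 0.49, without untreated 2 they were 0.066, 0.061 and 0.055, and with quantile normalization 0.15, 0.046 and -0.047, so that of Fgg changed sign. Fga over Fgb was 1.05, 0.999, 1.05 and 1.05 in the 4 libraries, and Fga over Fgg 0.894, 0.835, 0.924 and 0.878. F13b, the carrier chain of the fibrin-crosslinking factor XIII, was at 119 and 106 against 133 and 106.

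Genes that dissolve clots or protect them overlapped in all 3 cases. Plg, the plasminogen gene, was at 757 and 579 without and 691 and 589 with JIB-04. Cpb2, whose product shields fibrin from plasmin, was at 313 and 267 against 309.6 and 254, and Serpinf2, the plasmin inhibitor, at 525 and 408 against 487 and 448. Their log2 differences lay between -0.05 and 0.01 (adjusted p from 0.936 to 0.984).

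Differences of the 5 anticoagulants had both signs, and none passed. Serpinc1, the antithrombin gene, was at 261 and 253 FPKM without and 201 and 224 with JIB-04 (log2 difference -0.28, adjusted p = 0.386). Proc, of protein C, was at 237 and 227 against 201 and 218, and Proz, of protein Z, at 93.3 and 90.9 against 86.8 and 81.8. These 3 were lower in both treated animals. Serpind1, of heparin cofactor II, was higher in both, at 308 and 298 against 364 and 319 (log2 difference 0.17, adjusted p = 0.636). Pros1, of protein S, overlapped at 23.7 and 20.6 against 27.8 and 22.7. Exons of Serpinc1 overlap opposite-strand exons over 34.4% of their bases.

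The untreated animals differed from each other across most of the set. In untreated 1, 20 of 23 complement and 21 of 22 coagulation members were higher than in untreated 2, whereas 50.1% of all tested genes were. The exceptions were Mbl2, Masp1, C8b and Klkb1. Between the JIB-04 animals 26 of 45 members were higher in animal 1 (50.7% of all tested genes). In 22 of 45 members the gap between the untreated animals was wider than the difference between groups, as in 46.5% of all tested genes. Summed FPKM was 5753 and 4831 without and 5040.0 and 4579 with JIB-04 for complement. For coagulation it was 11509.6 and 8944, then 11592 and 10637. Both sums overlapped, and untreated 2 had the lowest coagulation sum.

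Acute phase genes, which hepatocytes switch on in inflammation, differed in the same direction, with a median log2 gap (untreated 1 minus 2) of 0.50 against 0.14 in the members. Of 18 tested 16 were higher in untreated 1. So were 9 of 9 endothelial, 9 of 10 macrophage and 6 of 7 stellate cell markers, 18 of 22 other complement genes, 14 of 27 other coagulation genes and 5 of 10 hepatocyte markers. The part of these genes in the members' gap was not tested. Saa1, the serum amyloid gene, was at 363 and 20.6 FPKM without and 135 and 41.7 with JIB-04. Orm2 was at 133 and 42.1, then 63.1 and 53.6, and Hp, the haptoglobin gene, at 3124 and 1857, then 3190.2 and 3108. Between groups, Crp (93.2 ± 5.17 to 151 ± 1.65) and Orm3 (31.8 ± 5.21 to 75.3 ± 10.9) rose, and Hamp, the hepcidin gene, fell (2473 ± 186 to 1248 ± 93.2; SD, n = 2; limma adjusted p = 0.0447, 0.0199 and 0.0318), while 15 did not pass. Over the 18 the median log2 difference was 0.32, with 10 above 0 and 8 below. An unadjusted limma p under 0.05 was found in 7 of them (15.5% of all tested genes). Apcs, of serum amyloid P, averaged 1042 and 1525 (adjusted p = 0.146). Without the filter on low values the calls of all 3 ended (0.245, 0.211 and 0.208). Without JIB-04 1 the calls of Crp, Orm3 and Hamp ended (0.171, 0.118 and 0.193), as they did without JIB-04 2 (0.220, 0.177 and 0.205) and without untreated 2 (0.163, 0.0539 and 0.0696). That of Crp also ended without untreated 1 (0.114), with quantile normalization (0.0679) and with plain limma (0.0604), so it held in 6 of 13 alternatives.

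**Figure D4:**
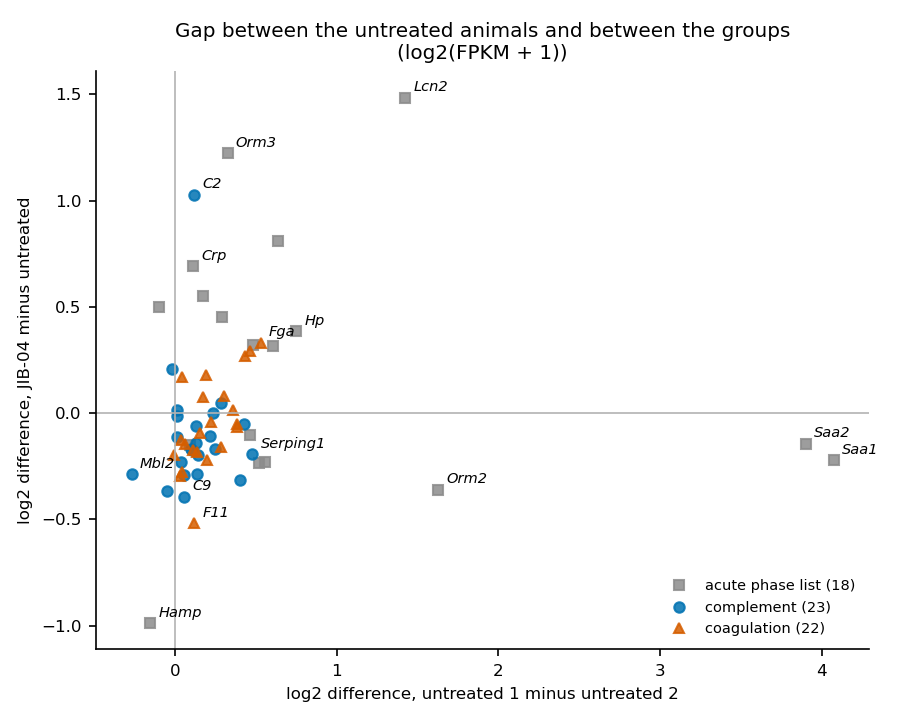
Log2 difference between the untreated animals (x axis, 1 minus 2) against that between groups (y axis, JIB-04 minus untreated), both on log2(FPKM + 1), for 23 complement, 22 coagulation and 18 acute phase genes. Points right of 0 are higher in untreated 1, as 41 of 45 members are, with Saa1 and Saa2 furthest right and C2 the highest member.

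Other genes of the cascades gave 1 call. Of 34 further complement genes 22 were tested and 0 called by limma (2.14% of all tested genes), and voom also called 0. In 5 the unadjusted limma p was under 0.05 (15.5% of all tested genes). The median log2 difference was -0.20, and 20 of the 22 were below 0 (48.6% of all tested genes). Both JIB-04 libraries lay below both untreated ones in 12 and above them in 2 (21.8% and 24.6% of all tested genes). Clu, of clusterin, which binds the terminal complex, had the highest difference, from 333 ± 73.7 to 544 ± 9.07 FPKM (SD, n = 2; adjusted p = 0.110). Cfhr2 averaged 129 and 93.2 (adjusted p = 0.149), the lectin gene Fcna 29.0 and 20.2 (0.159), and Cd59a, which blocks pore assembly on cells, 49.0 and 36.8 (0.186).

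Of 40 further coagulation genes 27 were tested, 1 rose and 0 fell (beside 1.53% of all tested genes called higher and 0.619% called lower). In 6 the unadjusted limma p was under 0.05 (15.5% of all tested genes). Hgfac, a protease related to factor XII, averaged 62.4 and 42.7 (adjusted p = 0.0751; 0.0382 with voom). Ggcx, the enzyme that carboxylates vitamin K dependent factors, averaged 17.5 and 23.6 (0.154), and Tpst2, a sulfotransferase for tyrosines of secreted proteins, 13.8 and 10.4 (0.166).

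Among 18 regulators of hepatocyte secreted protein genes 0 were called by limma, 3 had an unadjusted p under 0.05, and each of 3 alternatives called 1 lower: voom Cebpa, the replicate block Il6ra (adjusted p = 0.0110) and leaving out untreated 2 Socs3 (0.0197). Cebpa, of the factor C/EBP alpha, averaged 157 ± 16.9 and 106 ± 2.62 FPKM (SD, n = 2; log2 difference -0.56, adjusted p = 0.101, 0.0489 with voom). Hnf4a was at 113, 106, 110.4 and 97.7 in the 4 libraries. Il6ra, of the interleukin 6 receptor, averaged 10.99 ± 3.97 and 5.23 ± 2.51 (adjusted p = 0.388), Socs3, which damps its signal, 9.73 ± 3.93 and 4.40 ± 0.0539 (0.173), and Foxa1 5.12 and 7.004 (0.233).

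The labelled tissue showed its markers: 10 of 10 hepatocyte markers were tested, led by Alb at 46658 and 46858 without and 31689 and 22910.4 with JIB-04 (adjusted p = 0.144). All 10 had negative differences and 0 were called by limma (2 with an unadjusted p under 0.05), though 6 of 13 alternatives, voom among them, called Ass1 lower (lowest adjusted p = 0.0189). Their summed FPKM was 65888 and 63003 against 45911 and 38575, and Alb alone made up most of each sum. Of 9 tested endothelial markers 0 were called by limma or voom, with 0 under an unadjusted p of 0.05, and of 7 tested stellate cell markers 0 were called by limma and 1 had an unadjusted p under 0.05 (Lrat, called lower by voom and after rescaling). Summed FPKM of 8 neutrophil markers was 27.3 and 7.38 without and 45.7 and 73.1 with JIB-04. S100a8 made most of the treated sums (6.68 and 2.40, then 36.3 and 63.0, limma adjusted p = 0.131, called higher in 3 of 13 alternatives). S100a9, the other marker tested, overlapped (18.7 and 4.01, then 7.51 and 8.45, log2 difference -0.15, called in 1 of 13 alternatives), so the sums do not stand for all 8. Mpo and Elane were under 1 in all libraries. Of 2 tested 0 were called by limma and 1 had an unadjusted p under 0.05. Summed FPKM of 8 fat cell markers was 8.64 and 6.52, then 9.26 and 11.7, with 0 of 4 tested called by limma or voom. Of the 4, 2 were under an unadjusted p of 0.05 and higher, Cidec (2.57 and 1.67, then 3.26 and 4.43) and Pparg (3.27 and 2.48, then 4.19 and 4.67). The other 2, Fabp4 and Lipe, had negative differences (-0.12 and -0.11), so the sums do not stand for all 8. What part these cells had in the members' values was not tested.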

How the data were processed

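Total liver RNA (Trizol) went to a sequencing company for library preparation, per the labels' protocols. Values are FPKM in a single table that the authors deposited, beside gene lengths and coordinates. GRCm39 is named in the submitters' processing notes, and no source used here names the aligner, counter, strand setting or annotation. Multiplied by length, 100% of FPKM values were whole multiples of the worth of a read (tolerance 0.01), so reads could be recovered. Counting intervals were not computed.

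Members were selected by symbol. The members, gene lists and tests were chosen with earlier results of these data known. Values were log2(FPKM + 1), filtered at a mean FPKM of 1, and tested with limma 3.58.1 in R 4.3.3 (two-sided, eBayes with trend and robust options, Benjamini-Hochberg over all tested genes). The fit was also run on simulated libraries, as a check of the code and not of the calls made here. Values are given for all members. From other lists the called genes and up to 4 of lowest p are named, and Hnf4a, Saa1, Orm2, Hp, Lep, Retn, Adipoq, Mpo, Elane, Saa2 and overlapping genes were chosen after their values were seen. Of the cell type markers only those the counts turn on are named, and 1 called gene is not reported here. Shared exons and 50-base stretches came from GENCODE M21, promoters from RefSeq on GRCm38. As alternatives, the pseudocount was 0.1 or 0.5, the filter absent or at 5, the scaling changed (TPM, quantile), and plain limma, voom, a replicate block and leaving out each library were run.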

Additional observations from a re-analysis of the deposited data

How the results depend on the processing

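The number of tested genes called was 20 without the filter on low values, 446 with voom and 357 with the replicate block, and 23 to 156 (against 232) when 1 library was left out; without JIB-04 1 it was 30 and without JIB-04 2 it was 23. With a lone library its group was assumed to vary like the other. Complement members called numbered 0 without the filter and 0 to 1 with 1 library left out, the 1 being C2 where it was called. Coagulation members called numbered 1 with voom (F11) and 0 in the other 12 alternatives. The coagulation median was -0.21 with quantile normalization and ran from -0.18 to 0.025 with 1 library left out, and that of complement from -0.23 to -0.079; the cause was not tested. Of 584 member values under the alternatives 540 kept direction and call, 4 lost the call (all C2), 1 gained it (F11), and 39, in 17 members, changed sign with no call.

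Replicate numbers are shared by the groups, but no label says that a number pairs animals. The correlation of same-numbered libraries' deviations from their group means was -0.05 across genes, and with the replicate block C2 was still called (adjusted p = 0.0103) with 0 coagulation members. Depth limits Cfd, with at most 7 reads in a library. Cfb held 89 to 145 reads, and its count is also limited by the 79.5% of its exon bases shared with Gm20547.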
